A study of Mus musculus with 24 samples.

Results

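Passenger strands, the microRNA arms written with a star in the array's naming, were described on 24 microRNA arrays of mouse mammary carcinoma cells. All star-named miRNA probes were taken except miR-31*, miR-140* and those of the miR-297, miR-466, miR-467 and miR-669 repeat families, which left 109 of 114 star probes among 558 miRNA probes. The main strand of every one of the 109 was on the array too. The cells were the lines 67NR (described as nonmetastatic), 4TO7 (systemically invasive) and 4T1 (highly metastatic), grown for 6 days as organotypic cultures in a compliant or a rigid microenvironment. Treated cultures received TGF-beta. The others, which the labels also call basal, received a compound that blocks the type I TGF-beta receptor. The 3 lines, 2 microenvironments and 2 treatments gave 12 groups of 2 arrays each. No group lacked both agents, so the effect of adding TGF-beta and that of releasing the inhibition cannot be told apart. Each metastatic state was represented by 1 line, so state and line cannot be told apart either. Whether the 2 replicates of a group were separate cultures is not given in the labels, and all p-values measure only the spread between these arrays.

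A microRNA hairpin is cut by Drosha and then by Dicer into a short duplex. An Argonaute protein keeps one arm of the duplex, the guide, and the other arm, the passenger, is usually released and degraded. Loading tends to favour the arm whose 5′ end is less tightly paired and arms that begin with U or A. The star in early miRBase names marked the arm that had been cloned less often, and some arms named in this way are loaded and active in particular tissues. Both arms come from the same transcript, so a change in transcription or cropping reaches both, while a change in loading or decay can reach either arm alone.

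For 80 of the 109 star arms the RefSeq table of mature mouse microRNAs (GRCm38.p6) held a sequence, and for 75 it held the other arm as well. The star was the 3p arm in 50 of the 80. U was the first base of 7 star arms and of 47 main arms, and C was the first base of 32 star arms and 8 main arms. The median GC content was 50% for star arms and 42.9% for main arms. The arms below are those on which the results turn. They are written 5′ to 3′ in lower case, with the seed (bases 2 to 8, the stretch that pairs with targets) in capitals. For miR-22, miR-181a and miR-24 they show how unlike the seeds of both arms of a duplex are, and for miR-181a and miR-24 they show how star arms differ between hairpins that give the same main arm.
miR-22*: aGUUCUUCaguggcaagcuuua
miR-22: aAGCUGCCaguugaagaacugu
miR-181a-1*: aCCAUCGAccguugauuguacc
miR-181a-2*: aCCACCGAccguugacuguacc
miR-181a: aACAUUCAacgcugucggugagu
miR-24-1*: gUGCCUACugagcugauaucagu
miR-24-2*: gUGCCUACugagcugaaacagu
miR-24: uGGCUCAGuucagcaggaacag
miR-193*: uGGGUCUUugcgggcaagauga
miR-193: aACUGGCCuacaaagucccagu
miR-17*: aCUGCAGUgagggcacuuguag
miR-17: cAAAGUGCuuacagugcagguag
miR-20a*: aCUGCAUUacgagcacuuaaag
miR-20a: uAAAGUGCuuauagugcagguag
miR-200c*: cGUCUUACccagcaguguuugg
miR-200c: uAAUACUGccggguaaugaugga

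On GRCm38.p6 miR-22* lies at chr11:75463734-75463755 (plus strand) within the noncoding gene Mir22hg. The miR-181a hairpins lie on different chromosomes, with miR-181a-1* at chr1:137966508-137966529 (plus) and miR-181a-2* at chr2:38852785-38852806 (plus), within the span of Nr6a1 and Nr6a1os. These 22-base star arms differ at 2 positions. miR-24-1* lies at chr13:63301213-63301235 (plus) within the span of Aopep, and miR-24-2* at chr8:84208839-84208860 (plus). They have 23 and 22 bases and share the first 16. miR-193* lies at chr11:79711975-79711996 (plus) and miR-200c* at chr6:124718365-124718386 (minus). miR-17* and miR-20a* come from a single polycistron, at chr14:115043721-115043742 and chr14:115044219-115044240 (both plus). The table gives genes only by their span, so exons and introns were not assigned.

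A star arm can also share its seed with the star arm of another hairpin. Among the sequenced stars that entered the tests of change below there were 4 such pairs. They were miR-24-1* with miR-24-2*, miR-30c-1* with miR-30c-2*, miR-30a* with miR-30e*, and miR-376b* with miR-376c*. Stars that were not tested are left out of this count, and some share a seed as well, such as miR-20b* with miR-17*. The miR-30 arms are shown because each pair of them was measured by separate probes with close sequences.
miR-30a*: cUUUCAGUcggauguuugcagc
miR-30e*: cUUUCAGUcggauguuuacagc
miR-30c-1*: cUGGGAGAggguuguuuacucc
miR-30c-2*: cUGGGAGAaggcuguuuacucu

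Detection of star probes differed widely. A probe counted as detected on an array where its deposited detection p was under 0.05. By this measure 50 of the 109 star probes (45.9%) were detected on all 24 arrays, 16 on some and 43 (39.4%) on none. The 43 include miR-877*, whose probe carried a fail code on all 24 arrays. Of the 444 probes with no star, 231 (52.0%) were detected on all arrays and 130 (29.3%) on none. Between 51 and 60 star probes were detected per array. With detection at p under 0.01 the star probes on all arrays numbered 37 and those on none 53. A star probe below the background of one line may reflect fewer copies per cell or fewer cells that make it, which bulk RNA cannot tell apart.

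Detection of a star and of its main strand often differed. Both arms were detected on all arrays for 26 hairpins, while for another 26 the main strand was on all arrays and the star on none. The latter 26 include miR-877 with its failed star probe. For 14 hairpins the order was turned, with the star on all arrays and the main strand on none. These were miR-124*, miR-127*, miR-133a*, miR-135a*, miR-150*, miR-196a*, miR-199b*, miR-218-2*, miR-294*, miR-295*, miR-374*, miR-433*, miR-488* and miR-881*. Several of them belong to hairpins known from other cell types, such as miR-124 from neurons, miR-133a from muscle, miR-150 from lymphocytes and miR-294 and miR-295 from embryonic stem cells. In the marker lists of main strands, 6 of 7 embryonic stem cell markers, 5 of 6 blood cell markers and both endothelial markers were detected on none of the arrays of any line, while miR-292-3p and miR-451 of the first 2 lists were detected on all arrays. Of the 6 muscle markers, miR-208b was detected on all arrays of every line and miR-206 on all 8 of 67NR. In 67NR, 4TO7 and 4T1, 4, 5 and 5 of the 6 were detected on none, counting miR-133a and miR-133b separately though they share a probe. Of the 5 neural and liver markers, miR-138 and miR-122 were detected on all arrays and miR-124 on none.

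**Figure D1:**
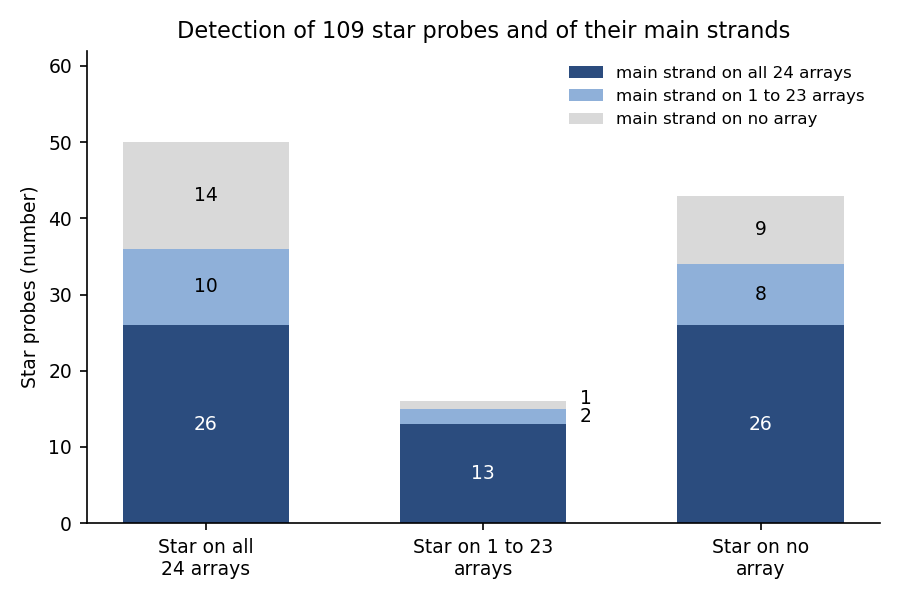
Number of star probes (vertical axis) detected on all 24 arrays, on 1 to 23 arrays or on no array, split by how many arrays detected the main strand of the same hairpin. Of the 50 star probes detected on every array, 26 had a main strand detected on every array and 14 had one detected on none.

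Whether a mature strand held the run GGG was noted on that strand only. The run was in 17 of the 36 sequenced star arms detected on all arrays (47.2%), in 3 of 15 detected on some (20%) and in 2 of 29 detected on none (6.9%). Of the 8 sequenced arms whose star was on all arrays and whose main strand was on none, 4 carried it. Main arms with a GGG run numbered 5 of 47 detected on all arrays (10.6%) and 1 of 11 detected on none. Across all mature sequences of the table, 514 of 1679 (30.6%) held the run. The median GC content was 50% for star arms detected on all arrays and 45.5% for those on none. Whether the run itself raises the signal was not tested.

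Detection of several stars varied by line. miR-20a* and miR-29a* were detected on 0 of 8 arrays of 67NR and on 8 of 8 of both 4TO7 and 4T1. let-7g* was detected on 0, 3 and 7 arrays of 67NR, 4TO7 and 4T1, and miR-30a* and miR-30e* each on 0, 4 and 7. In the other direction, miR-22* was detected on 8 of 8 arrays of 67NR, 2 of 4TO7 and 4 of 4T1. miR-503* was detected on 4 arrays, all of 4TO7. The main strands of all these hairpins were detected on every array.

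The let-7 hairpins, whose main strands are known to hold back growth programmes, had 5 of 7 stars detected on no array and none on all. Among stars of the Dlk1-Dio3 imprinted cluster 5 of 13 were on all arrays and 8 on none. All 4 stars of the miR-23, miR-27 and miR-24 clusters and both of the miR-99, miR-100 and miR-125 group were on all arrays. In the miR-17 clusters, 3 of 8 were on all arrays and 4 on none, and in the miR-200 and miR-183 epithelial clusters 1 of 5 was on all and 2 on none.

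Changes were tested on log2 relative intensity. The value tested is the intensity of the sample's dye relative to a second dye, quantile-normalized between arrays, and 1 unit is a 2-fold change. A probe entered the test if both arrays of at least 1 group detected it, which left 365 probes, 61 of them stars, and 48 stars were not tested. Replicate arrays correlated at r between 0.991 and 0.997 over the tested stars. Epithelial marker main strands differed between lines, with 5 of 6 detected on all 8 arrays of 4T1, 1 of 6 in 67NR and 1 of 6 in 4TO7. Their summed level was 8.41 to 8.88 in 67NR, 8.56 to 8.98 in 4TO7 and 10.5 to 11.1 in 4T1 (log2 relative intensity). Of 6 fibroblast markers, 4, 3 and 3 were on all arrays of 67NR, 4TO7 and 4T1. Among these 6, miR-199a-3p and miR-199b share a probe, which was detected on no array. The part of these shifts in the line differences of single stars was not tested.

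The tested stars moved over a narrower span than main strands. The range of the 12 group means had a median of 0.50 (log2) over the 61 stars, 0.92 over 79 tested main strands of the same naming set and 0.69 over all 301 tested probes with no star. The 79 include main strands of stars that were not tested and some not detected in every line. Among tested probes detected on all arrays the medians were closer, 0.53 over 50 stars and 0.67 over 229 probes with no star. The range passed 1 for 2 of 61 stars and for 37 of 79 main strands. The part of signal level in this contrast was not tested. The residual standard deviation was alike, with a median of 0.0675 over the stars and 0.0764 over all tested probes.

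**Figure D2:**
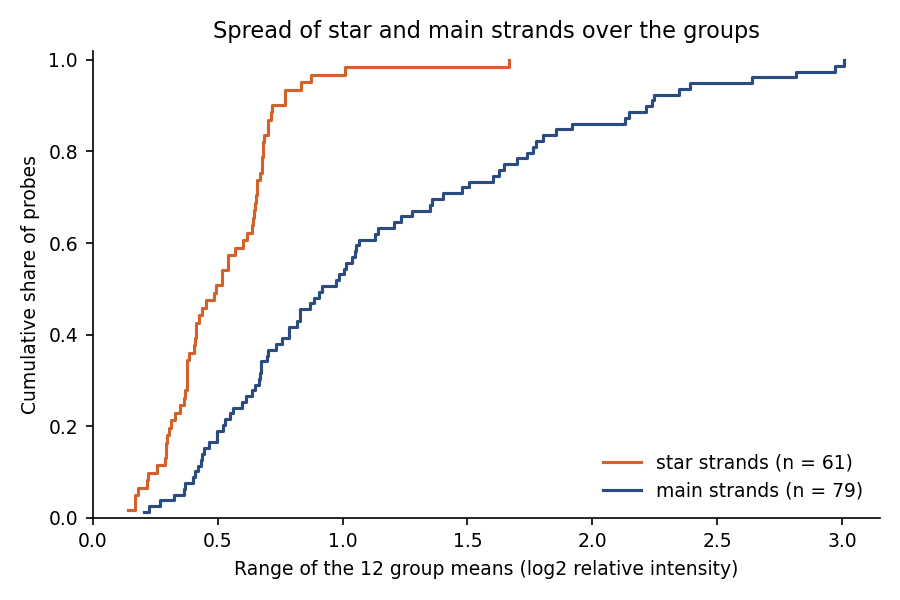
Cumulative share of probes (vertical axis) by the range of their 12 group means in log2 relative intensity (horizontal axis), for 61 tested star strands and 79 tested main strands. The curve of the stars lies to the left, with a median range of 0.50 against 0.92, and only 2 stars lie above 1.

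TGF-beta against the inhibitor, the comparison in the study's title, changed 18 of the 61 tested stars over all lines (limma, adjusted p under 0.05), 14 higher and 4 lower. The stars' share of 29.5% was below that of all 365 probes, 39.5% (21.4% higher and 18.1% lower). The median change was 0.03 (log2) over the stars and 0.01 over all probes. The largest rises were those of miR-22* by 0.27 and of miR-181a-2* by 0.22, and the largest falls were those of miR-24-2*, at -0.18, and miR-193*, at -0.13. In single lines the stars called were 2 of 61 in 67NR, both higher (background 11%, of which 3.29% higher and 7.67% lower), 10 in 4TO7, 5 in each direction (background 21.4%, of which 9.59% higher and 11.8% lower), and 12 in 4T1, 9 higher and 3 lower (background 31.8%, of which 12.6% higher and 19.2% lower). With slide as a block these counts were 1, 4 and 3, and with single arrays left out they ranged from 0 to 5, 3 to 11 and 8 to 15. miR-22* and miR-181a-2* kept their calls in 4TO7 and 4T1, and miR-24-2* in 4TO7, under all 8 alternatives (7 for miR-22*, which was not detected on all arrays).

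miR-22* was the star with the largest TGF-beta difference. In 4T1 its log2 values were 6.57, 6.44, 6.47 and 6.44 with the inhibitor and 7.02, 6.88, 6.87 and 7.06 with TGF-beta. In 4TO7 they were 6.64, 6.40, 6.41 and 6.41 with the inhibitor and 6.71, 6.79, 6.63 and 6.76 with TGF-beta. In 67NR they were 6.98, 6.85, 6.94 and 6.90 with the inhibitor and 6.93, 7.0, 7.03 and 6.99 with TGF-beta. The treatments were apart on every array of 4T1, met at 1 inhibitor array in 4TO7 and overlapped in 67NR. The probe was detected on 4 of 4 TGF-beta and 0 of 4 inhibitor arrays of 4T1, and the rise there is given as a bound, at least 1.40-fold. Such a bound sets the mean of the brighter group against the mean, over the dimmer group's arrays, of the probe's own signal or the lowest signal detected on that array, whichever was higher. In 4TO7 the bound was at least 1.19-fold. These bounds, written as at least here and below, are point estimates. They make no allowance for the spread between arrays and are not confidence limits.

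Over all lines the TGF-beta difference of miR-22* was 0.27 ± 0.03 (log2, SE; adjusted p = 5.57e-06). By line it was 0.48 in 4T1 (adjusted p = 5.66e-06), 0.26 in 4TO7 (adjusted p = 0.00305) and 0.07 in 67NR (adjusted p = 0.487). The effect differed between lines (limma F test, adjusted p = 0.0057), and the difference between 4T1 and 67NR was 0.41 ± 0.08 (SE; adjusted p = 0.0033). Of the 61 stars, 2 passed this test of the difference between lines, against a background of 14.5%.

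The main strand moved further. miR-22 rose on the log2 scale by 0.34 in 67NR, 0.62 in 4TO7 and 1.26 in 4T1, with no overlap between treatments in any line. Its inhibitor arrays read 10.01, 9.93, 9.88 and 9.79 in 4T1 and its TGF-beta arrays 11.06, 11.21, 11.16 and 11.21. The log2 ratio of star to main, taken within each array before normalization, changed by -0.38 ± 0.04 (SE; limma, adjusted p = 9.60e-08 over 74 pairs).

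miR-181a-2* rose by 0.22 ± 0.03 over all lines (log2, SE; adjusted p = 4.04e-06). The miR-181 family is best known from lymphocyte development. In 4T1 the inhibitor arrays read 6.73, 6.84, 6.76 and 6.96 and the TGF-beta arrays 7.17, 7.09, 7.18 and 7.16. In 4TO7 they read 6.85, 7.0, 7.04 and 6.97 against 7.17, 7.15, 7.14 and 7.21. In 67NR they read 7.29, 7.25, 7.23 and 7.41 against 7.48, 7.36, 7.42 and 7.44. Treatments did not overlap in 4T1 or 4TO7 and overlapped in 67NR, where the rise of 0.13 did not pass (adjusted p = 0.0699).

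The main strand miR-181a is made from both hairpins and rose by 0.79 in 67NR, 0.90 in 4TO7 and 0.95 in 4T1 (log2), with no overlap of treatments in any line. The star of the other hairpin, miR-181a-1*, changed by 0.02 ± 0.03 over all lines (SE; adjusted p = 0.518), and its treatments overlapped in all 3 lines. With detection at p under 0.01, miR-181a-1* was detected on 2 of 24 arrays and miR-181a-2* on 24. Whether a signal this near background hid a change was not tested. The difference between the changes of both stars was tested after their values were seen. The change of miR-181a-1* minus that of miR-181a-2* was -0.18 (exact permutation within line and microenvironment, two-sided, p = 8.57e-05; adjusted over 20 tests of 4 such pairs, 0.000857). The ratio of star to main fell for both, by 0.64 for miR-181a-2* (adjusted p = 1.36e-11) and by 0.82 for miR-181a-1* (adjusted p = 2.36e-12).

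miR-24-2* fell by 0.18 ± 0.03 over all lines (log2, SE; adjusted p = 4.22e-05). In 4TO7 the inhibitor arrays read 7.94, 7.84, 7.90 and 7.97 and the TGF-beta arrays 7.50, 7.74, 7.69 and 7.62. In 67NR they read 7.61, 7.51, 7.61 and 7.58 against 7.42, 7.47, 7.41 and 7.47, and in 4T1 8.20, 8.04, 8.05 and 7.99 against 7.96, 7.97, 7.82 and 8.06. Treatments were apart in 4TO7 and 67NR and overlapped in 4T1. The fall passed in 4TO7 (-0.28, adjusted p = 0.000199), but not in 67NR (-0.13, adjusted p = 0.0653) or 4T1 (-0.12, adjusted p = 0.0554).

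miR-24 is made from both hairpins, each with miR-23 and miR-27 in a cluster. Its change in the same lines was -0.03 in 4TO7 (adjusted p = 0.867), -0.25 in 67NR (adjusted p = 0.0838) and -0.00 in 4T1 (adjusted p = 0.982). The other star, miR-24-1*, changed by -0.00 ± 0.02 over all lines (SE; adjusted p = 0.969). The change of miR-24-1* minus that of miR-24-2* was 0.16 (exact permutation, two-sided, p = 4.29e-05, the smallest this design can give; adjusted 0.000857). Cross-hybridisation between probes as close as these was not tested. The same test did not pass for the TGF-beta change of miR-27a* minus miR-27b* (0.05, exact permutation, adjusted p = 0.498) or of miR-30c-1* minus miR-30c-2* (-0.02, adjusted p = 0.795).

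miR-193* fell by 0.13 ± 0.03 over all lines (log2, SE; adjusted p = 0.000844). The 4T1 arrays read 6.50, 6.58, 6.59 and 6.61 with the inhibitor and 6.40, 6.50, 6.41 and 6.41 with TGF-beta. In 4TO7 they read 6.64, 6.68, 6.54 and 6.68 against 6.45, 6.47, 6.64 and 6.43, and in 67NR 6.81, 6.67, 6.84 and 6.74 against 6.66, 6.62, 6.67 and 6.66. Most TGF-beta arrays were below the inhibitor arrays, with values that overlapped in each line. The main strand miR-193 fell in the same lines, by 0.98, 0.59 and 0.92 (4T1, 4TO7 and 67NR), without overlap. The ratio of star to main rose by 0.74 ± 0.05 (SE; adjusted p = 9.46e-11).

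**Figure D3:**
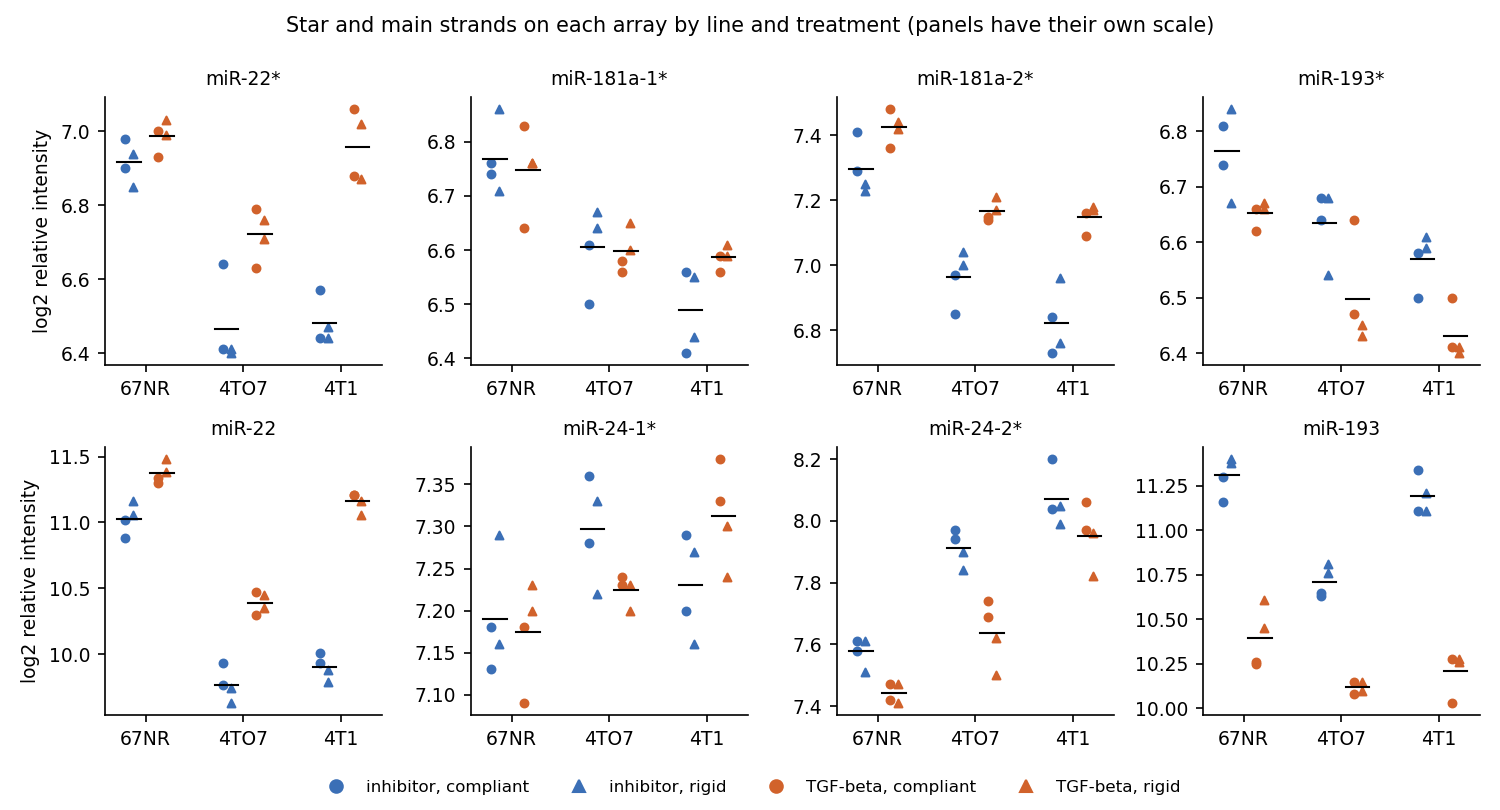
Log2 relative intensity (vertical axis, own scale in each panel) of miR-22*, miR-181a-1*, miR-181a-2*, miR-193*, miR-22, miR-24-1*, miR-24-2* and miR-193 on each of the 24 arrays, by line, treatment (colour) and microenvironment (symbol). Black bars are means of 4 arrays. miR-22* and miR-181a-2* with TGF-beta lie above the inhibitor in 4T1, miR-181a-1* and miR-24-1* overlap in every line, and miR-24-2* with TGF-beta lies below in 67NR and 4TO7.

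Smaller changes spread over other hairpins. miR-146b* rose by 0.13 (adjusted p = 0.00255), beside a main strand that rose by 0.40 (log2). That main strand was detected on 0, 4 and 8 of 8 arrays of 67NR, 4TO7 and 4T1. miR-294* rose by 0.11 (adjusted p = 0.00196), miR-708* by 0.10 (adjusted p = 0.00398), miR-199b* by 0.09 (adjusted p = 0.00114) and miR-17* by 0.08 (adjusted p = 0.0012). miR-20a* rose by 0.11 (adjusted p = 0.0165) and miR-30a* fell by 0.12 (adjusted p = 0.00162), though neither star was detected on any array of 67NR. The 6 tested stars of hairpins listed for a TGF-beta response of their main strand had 3 rises and 1 fall. That list was drawn up with these samples known and is no independent evidence of direction. Over all 365 probes 21.4% rose and 18.1% fell. Of the 8 tested stars from hairpins of other cell types 2 rose, of the 3 fibroblast and mesenchymal stars 2 rose, of the 4 miR-17 cluster stars 2 rose, and of the 5 miR-30 stars 1 fell.

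miR-30c-2* is an example of unequal change of a star and its main strand. The ratio of miR-30c-2* to miR-30c rose by 0.39 ± 0.05 (SE, limma adjusted p = 5.07e-06). The star was at 0.07 (adjusted p = 0.0856) and the main strand at -0.30. The miR-30c probe, which is also the main strand of miR-30c-1*, was detected on 2, 8 and 8 of 8 arrays of 67NR, 4TO7 and 4T1. For miR-125b*, the ratio to miR-125b-5p rose by 0.36 (adjusted p = 4.70e-05), and for miR-21* the ratio to miR-21 changed by -0.48 (adjusted p = 0.000116). For 45 stars the main strand was tested too. These include 4 pairs of stars that share a main strand probe, which is counted for each star, so the 45 are not independent. By TGF-beta 19 of the 45 ratios were called different (12 higher and 7 lower). The share over all 74 pairs was 40.5% (24.3% higher and 16.2% lower). Among the 45, both arms passed with the same sign in 5 and with opposite signs in none. The star alone passed in 8, the main strand alone in 16 and neither in 16. In 35 of 45 the star changed less than its main strand, with a median size of 0.05 against 0.09 (log2).

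**Figure D4:**
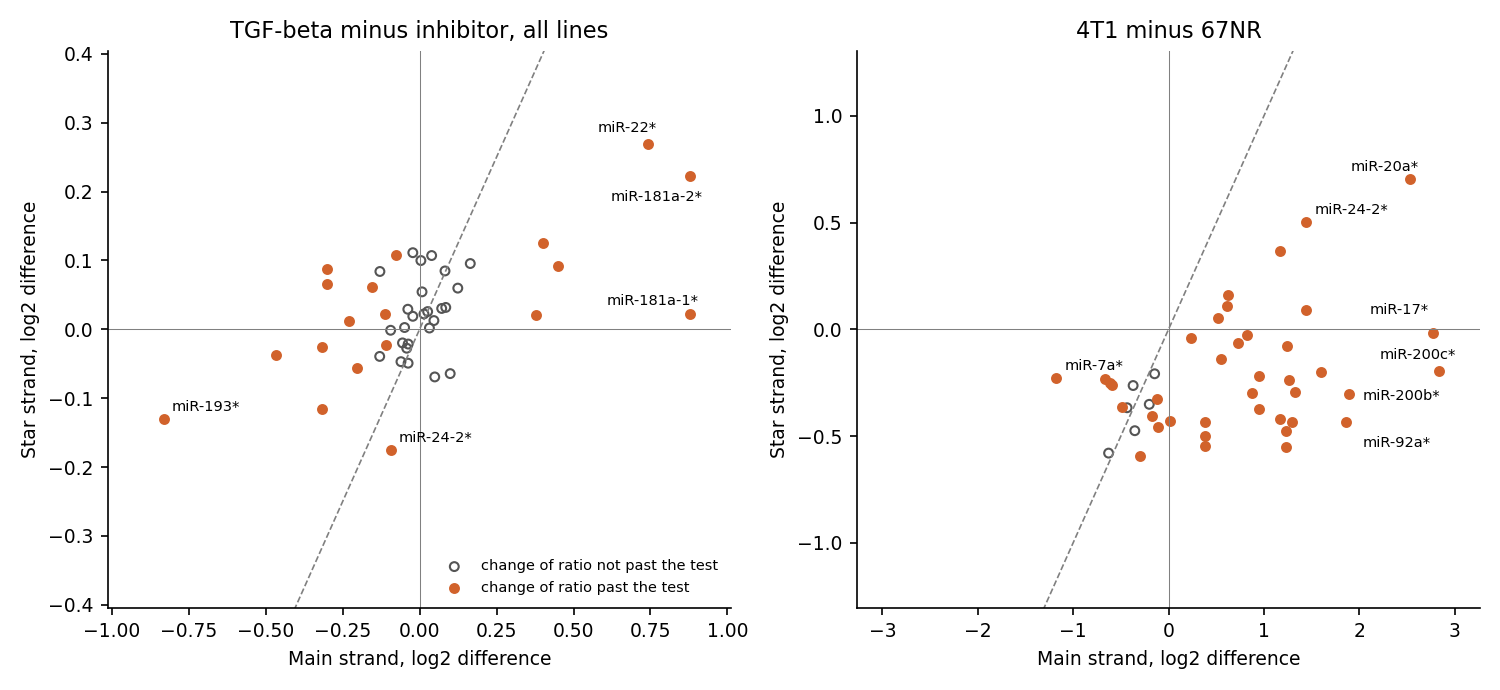
Log2 difference of the star strand (vertical axis) against that of the main strand (horizontal axis) for 45 pairs of star and main strand. The left panel is TGF-beta against the inhibitor over all lines and the right panel 4T1 against 67NR. Filled points are pairs whose star to main ratio changed past the test. The dashed line marks equal change, and the vertical axis spans a smaller range than the horizontal one. Most points lie nearer to 0 on the star axis, 35 of 45 on the left and 34 of 45 on the right.

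Differences between lines reached most tested stars, as they did most probes. In 4TO7 against 67NR 54 of 61 stars passed (7 higher and 47 lower), with a background of 86.8% (29.9% higher and 57% lower). In 4T1 against 67NR 56 passed (7 higher and 49 lower; background 89.6%, with 30.7% higher and 58.9% lower), and in 4T1 against 4TO7 38 passed (7 higher and 31 lower; background 63%, with 23% higher and 40% lower). Quantile normalization left the median of all probes at -0.15, -0.22 and -0.07 (log2) in these comparisons, and the medians of the stars were -0.21, -0.30 and -0.08. Against the median of all probes, 38, 43 and 37 of 61 stars were lower, so signs of small differences depend on the scaling.

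The arms of the miR-17 polycistron differed widely. Its main strands, known as growth-promoting and as targets of Myc, were far higher in 4TO7 and 4T1. miR-17 read 7.05 to 7.27 in 67NR (median 7.15 over 8 arrays), 9.30 to 9.79 in 4TO7 (median 9.45) and 9.77 to 10.03 in 4T1 (median 9.90). On the same arrays miR-17* read 7.63 to 7.85 (median 7.64), 7.57 to 7.75 (median 7.66) and 7.59 to 7.74 (median 7.69). The star's values overlapped in all lines, while those of the main strand of 67NR lay far below the others.

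The log2 difference of miR-17* was -0.02 ± 0.02 (SE; adjusted p = 0.301) in 4TO7 and -0.02 ± 0.02 (adjusted p = 0.458) in 4T1 against 67NR, beside 2.34 and 2.77 for miR-17. The ratio of star to main changed by -2.32 (adjusted p = 5.81e-19) and -2.74 (adjusted p = 1.77e-20). miR-20a*, from the same transcript, did rise. It read 6.10 to 6.23 in 67NR (median 6.17), 6.59 to 7.03 in 4TO7 (median 6.77) and 6.76 to 6.97 in 4T1 (median 6.87), without overlap of 67NR and the others. It was detected on no array of 67NR, and the bound on the rise was 1.56-fold in 4TO7 and 1.62-fold in 4T1 (measured differences 0.64 and 0.70).

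The filter admitted miR-20a* through its 4TO7 and 4T1 arrays alone. Its main strand miR-20a was higher by 2.28 and 2.53, and the ratio of both arms changed by -1.68 and -1.87, resting in 67NR on a probe below background. miR-92a* went the other way and read 12.92 to 13.27 in 67NR, 12.60 to 13.01 in 4TO7 and 12.48 to 12.66 in 4T1, with 4T1 below every array of 67NR. It differed by -0.21 in 4TO7 (adjusted p = 0.00242) and by -0.44 in 4T1 (adjusted p = 1.48e-06), while miR-92a was higher by 1.72 and 1.86. Its ratio changed by -2.20 and -2.45.

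The epithelial miR-200 stars did not follow their main strands. miR-200c, which holds down Zeb1 and Zeb2 and keeps the epithelial state, was detected on 8 of 8 arrays of 4T1 and on none of the other lines, so it was at least 6.41-fold higher in 4T1 than in 67NR and at least 6.13-fold higher than in 4TO7. The star read 6.68 to 6.85 in 67NR (median 6.80), 6.56 to 6.77 in 4TO7 (median 6.68) and 6.48 to 6.68 in 4T1 (median 6.61). Its difference of 4T1 to 67NR was -0.20 ± 0.03 (SE; adjusted p = 1.88e-06), with groups that came within rounding of each other at 6.68 and did not overlap. The star was detected on 4, 1 and 4 of 8 arrays of 67NR, 4TO7 and 4T1. The ratio changed by -3.01 (adjusted p = 1.92e-21), resting in 67NR on an undetected main strand.

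For miR-200b* the difference of 4T1 from 67NR was -0.30, beside a main strand at least 2.77-fold higher. This star passed the detection filter through 1 group only, of 67NR, where it is high (5, 0 and 3 of 8 arrays detected in 67NR, 4TO7 and 4T1), so its difference is given as a description. The main strands miR-200b, miR-200c and miR-183 were detected on no array of 67NR, and miR-183 was at least 3.03-fold higher in 4T1.

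**Figure D5:**
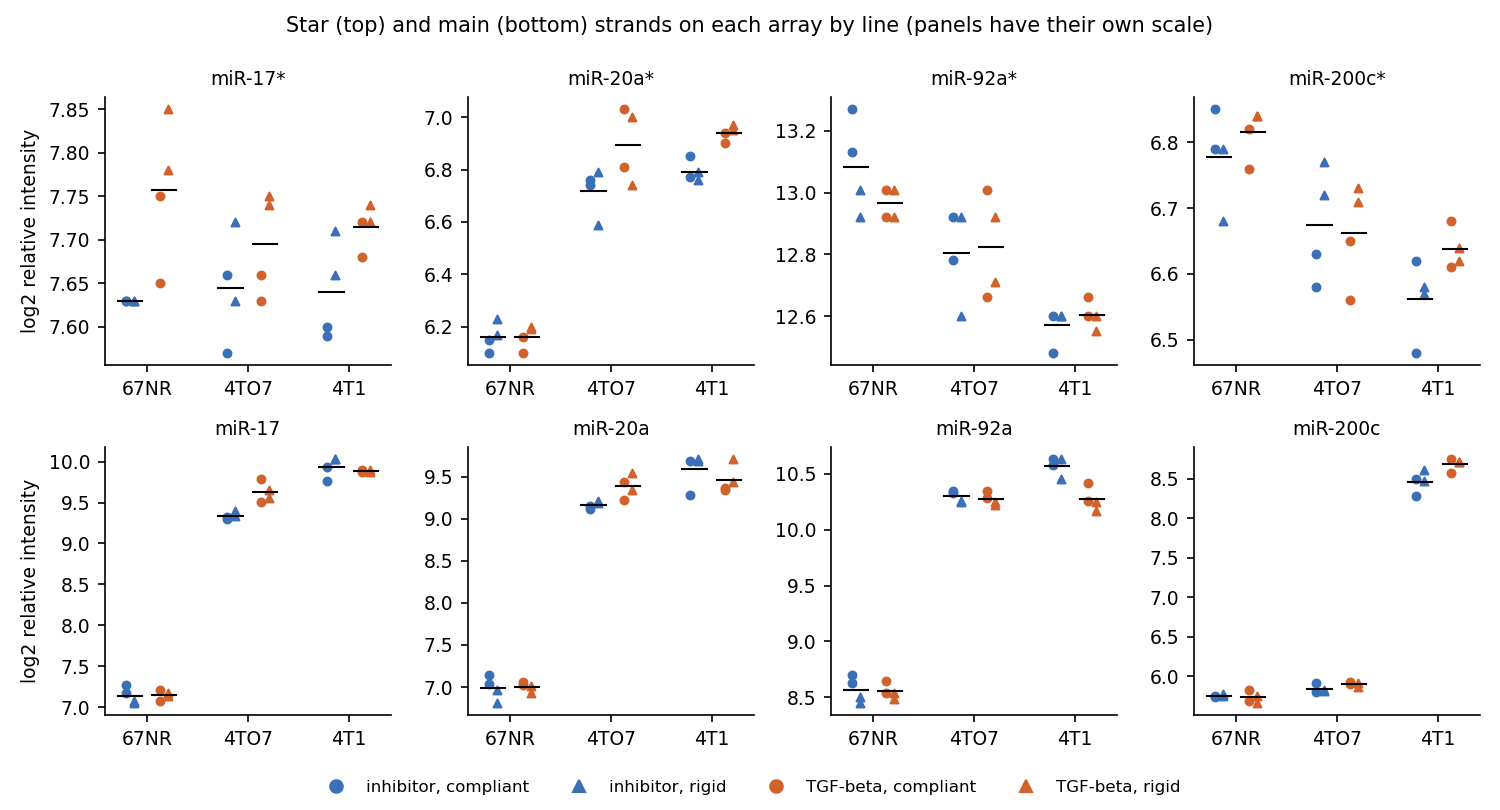
Log2 relative intensity (vertical axis, own scale in each panel) of miR-17*, miR-20a*, miR-92a* and miR-200c* (top) and of their main strands (bottom) on each array, by line, with treatment as colour and microenvironment as symbol. Black bars are means of 4 arrays. The main strands of miR-17, miR-20a and miR-92a rise from 67NR to 4TO7, while of their stars only miR-20a* does, and miR-200c stands apart in 4T1 only.

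Other stars that were higher outside 67NR were few. miR-29a*, whose main strand is known for collagen targets, read 6.93 to 7.13 in 67NR, 7.51 to 7.76 in 4TO7 and 7.25 to 7.51 in 4T1, at least 1.52-fold and at least 1.29-fold above 67NR, and the filter admitted it through 4TO7 and 4T1 too. miR-295* read 7.51 to 7.66 in 67NR, 7.83 to 8.06 in 4TO7 and 7.91 to 8.36 in 4T1, and was higher by 0.37 (adjusted p = 1.44e-07) and 0.52 (adjusted p = 1.27e-09). miR-24-2* read 7.41 to 7.61, 7.50 to 7.97 and 7.82 to 8.20, and was higher by 0.27 (adjusted p = 8.57e-07) and 0.50 (adjusted p = 2.21e-10). miR-24-1* was higher by 0.08 and 0.09 (adjusted p = 0.0143 and 0.00592). Both calls were lost with median scaling over all probes (0.03 and 0.05, adjusted p = 0.345 and 0.117), and that in 4TO7 also with slide as a block. The difference of the changes of miR-24-1* and miR-24-2* was -0.24 in 4TO7 and -0.43 in 4T1 (exact permutation, two-sided, adjusted p = 0.00441 for each).

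Among the lower stars, miR-712* had the largest difference. It read 9.67 to 10.49 in 67NR (median 10.08), 8.65 to 9.19 in 4TO7 (median 8.98) and 9.21 to 9.88 in 4T1 (median 9.51), and fell by 1.16 in 4TO7 against 67NR (adjusted p = 9.49e-09). This was the 1 star that passed with over a 2-fold difference in 4TO7 against 67NR, beside 28 of all 365 probes. No star did so in 4T1 against 67NR or in 4T1 against 4TO7, beside 45 and 11 of 365 probes. miR-712 has been reported to come from the ribosomal RNA precursor. miR-135a* fell by 0.67 in 4TO7 and 0.79 in 4T1, and read 8.45 to 8.79 in 67NR against 7.71 to 8.10 and 7.66 to 8.06. miR-199b*, from a hairpin of mesenchymal cells, fell by 0.49 and 0.66 (adjusted p = 1.33e-11 and 1.44e-13), with 7.90 to 8.14 in 67NR above 7.46 to 7.57 and 7.22 to 7.46.

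By hairpin group, all 5 tested Dlk1-Dio3 stars, all 6 of the hairpins listed for a TGF-beta response and all 17 of the other hairpins were lower in 4TO7 than in 67NR. In 4T1 against 67NR the same groups had 5 of 5, 6 of 6 and 16 of 17 lower. Of the 8 tested stars of hairpins from other cell types 6 and 7 were lower. Some other groups were split. In 4TO7 against 67NR the miR-23, miR-27 and miR-24 clusters had 2 higher and 2 lower of 4. The miR-17 clusters had 1 higher and 2 lower of 4, the miR-30 family 1 and 3 of 5. The fibroblast and mesenchymal stars had 1 higher and 2 lower of 3. Most probes were lower in these comparisons: 57% and 58.9% of all 365 passed as lower, as did 47 and 49 of all 61 tested stars, and the medians over all probes were -0.15 and -0.22. The 2 tested let-7 stars passed in no comparison of lines. Of the 45 ratios of star to main, 35 differed in 4TO7 against 67NR, 5 higher and 30 lower (background 73%, of which 20.3% higher and 52.7% lower). In 4T1 against 67NR 39 differed, 5 higher and 34 lower (background 82.4%, of which 21.6% higher and 60.8% lower). In 4T1 against 4TO7 37 differed, 8 higher and 29 lower (background 71.6%, of which 20.3% higher and 51.4% lower). In 4T1 against 67NR the arms of 21 of these pairs passed with the same sign and those of 19 with opposite signs. The ratios of miR-7a* moved against most others, at 1.17 in 4TO7 and 0.98 in 4T1 against 67NR.

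Between 4T1 and 4TO7, miR-294* fell by 0.39 in 4T1 against 4TO7 (adjusted p = 2.54e-08), miR-322* by 0.32 and miR-183* by 0.26. miR-712* was higher by 0.56 (adjusted p = 8.71e-05), miR-218-2* by 0.29 and miR-24-2* by 0.23. The ratio of miR-181a-2* to miR-181a changed by -1.30 and that of miR-181a-1* by -1.27, beside a main strand higher by 1.21.

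Few stars differed between the rigid and the compliant microenvironment. Over all lines 7 of 61 passed (5 higher and 2 lower), against a background of 21.9% (10.7% higher and 11.2% lower). In 67NR 3 passed, 2 higher and 1 lower (background 11%, of which 6.3% higher and 4.66% lower). In 4TO7 none passed (background 2.74%, of which 0.822% higher and 1.92% lower; 7 at an unadjusted p under 0.05 in limma). In 4T1 2 passed, both higher (background 7.4%, of which 3.56% higher and 3.84% lower). No star passed the test of a difference in the rigidity effect between lines (background 8.22%; 4 at an unadjusted p under 0.05).

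miR-218-2* had the largest rigidity difference. Its hairpin lies within the Slit3 gene, and its main strand was detected on no array. In 4T1 it read 8.35, 8.25, 8.42 and 8.86 in the compliant and 9.02, 9.12, 8.96 and 8.73 in the rigid microenvironment, with an overlap at 1 compliant array. It rose by 0.30 ± 0.05 over all lines (SE; adjusted p = 0.000717) and by 0.49 ± 0.09 in 4T1 (SE; adjusted p = 0.00158). miR-30c-2* rose by 0.10, miR-708* by 0.09, miR-330* by 0.09 and miR-17* by 0.07, while miR-24-2* fell by 0.08 and miR-425* by 0.07. Of these calls, that of miR-218-2* held under all 8 alternatives, and that of miR-425*, detected on 5 of 24 arrays, under the 6 that could be run for it. With slide as a block 3 stars passed over all lines, and 4 when arrays were scaled on the probes detected on all of them.

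Of the 45 ratios, 6 differed by rigidity (5 higher and 1 lower), against 10.8% of all pairs (8.11% higher and 2.7% lower). The ratio of miR-146b* to miR-146b rose by 0.31 (adjusted p = 2.54e-05), with the star at -0.01 and the main strand at -0.31. The main strand miR-146b was detected on 0, 4 and 8 of 8 arrays of 67NR, 4TO7 and 4T1, so this ratio rests partly on a probe below background. Those of miR-181a-2* and miR-181a-1* rose by 0.20 and 0.21 (adjusted p = 0.00101 and 0.00118), with the main strand at -0.19.

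Arrays of the same slide gave the line differences most often the same sign. Where a slide held both treatments of the same line and microenvironment (4 cases), 12 of the 18 stars called for TGF-beta had the same sign in all 4. These cases were of 67NR and 4TO7, and none was of 4T1. Most TGF-beta arrays of 4T1 were on a slide that held no 4T1 inhibitor array, so slide and treatment cannot be fully told apart in that line. miR-181a-2* ranged from 0.18 to 0.29, miR-24-2* from -0.25 to -0.19 and miR-193* from -0.18 to -0.15 within slides, whereas miR-22* ranged from -0.05 to 0.36 and was positive in 3 of 4. For rigidity 3 of 7 stars had the same sign in all 3 cases. Within slides 52 of 54, 53 of 56 and 31 of 38 stars of the line comparisons (4TO7 and 4T1 against 67NR, then 4T1 against 4TO7) kept a single sign. The cases behind these numbered 3, 2 and 2. All stars counted here had been called on the same arrays, so a shared sign is no independent evidence.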

How the data were processed

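RNA of 3 mouse mammary carcinoma lines was measured on 24 two-dye miRNA arrays on 5 slides. Per the file headers and readme, the deposited intensity is a linear relative intensity of DY649 to the second dye DY547, background-subtracted and corrected for labelling, not normalized between arrays. The deposited detection p-value compares DY649 with background probes. The authors' value table of 338 probes holds log2 intensity plus 1 constant per array (largest deviation 5.9e-06), and its values are log2 as deposited. The scanner and software are not given in the sources used here.

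Log2 intensity of 558 probes was quantile-normalized and fitted with limma 3.58.1 (R 4.3.3), 12 group means, trended eBayes, Benjamini-Hochberg adjustment over 365 probes and 12 residual degrees of freedom. Tested probes had a detection p under 0.05 on both arrays of some group and a fail code on fewer than 12 arrays. Star to main ratios used un-normalized log2 values over 74 pairs. Stars were named by the 10 largest rises and falls past the test over all arrays that had the same direction in both replicate sets. No test was run within a set. The 6 smallest p of each F test and the 10 smallest adjusted p of the ratios were named too. Other stars were chosen after their values were seen. The members and lists were chosen with earlier results of these data known. The fits were tested on simulated data. Alternatives were other scalings, the authors' value table, detection filters, slide or replicate blocks, array weights and each array left out. Tables were made with Python 3.11.15 (pandas 2.3.3). The 2 arrays per group limit the precision.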

Additional observations from a re-analysis of the deposited data

Results flagged for a closer look

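The TGF-beta effect on miR-22* differed between lines by limma's F test (adjusted p = 0.0057, 365 probes), with 0.48 in 4T1, 0.26 in 4TO7 and 0.07 in 67NR (log2). The difference between 4T1 and 67NR passed (0.41 ± 0.08, adjusted p = 0.0033), and those of 4TO7 with 67NR (adjusted p = 0.161) and with 4T1 (adjusted p = 0.0921) did not.

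The effect on miR-295* differed too (adjusted p = 0.033), chiefly between 4T1 and 4TO7 (0.30 ± 0.07, adjusted p = 0.0158). Leaving out any of 8 single arrays ended that call, with adjusted p between 0.0544 and 0.0871: 4T1 compliant inhibitor 2, rigid inhibitor 1 and rigid TGF-beta 1 and 2, and 4TO7 compliant inhibitor 1, compliant TGF-beta 2, rigid inhibitor 1 and rigid TGF-beta 2.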

How the results depend on the processing

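Of 1022 values of named stars under the alternatives, 913 kept direction and call, 93 lost the call, 16 gained it and none turned. The named stars were chosen for their changes on these same arrays, so directions that did not turn are no independent evidence. The counts moved more. With median scaling over all probes, 1 star passed for TGF-beta in 67NR (lower) and 1 for rigidity in 4T1. Scaled on probes detected on all arrays, 6 passed for TGF-beta in 4TO7, 20 in 4T1, 4 for rigidity over all lines, 0 in 67NR and 2 in 4TO7. On the authors' value table, 28 passed for TGF-beta over all lines (25 higher and 3 lower, against 14 and 4), 9 in 67NR, 4 for rigidity over all lines, 0 in 67NR and 1 in 4T1. Scaled on always-detected probes the TGF-beta split over all lines was 23 and 3. In 4TO7 the splits were 5 and 1 there and 9 and 1 on the authors' table, against 5 and 5.

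With no detection filter the counts were 1 for TGF-beta in 67NR, 6 in 4TO7, 1 for rigidity in 4T1 and 86 for the comparison 4T1 minus 67NR. On probes detected on all arrays 4 passed for TGF-beta in 67NR and 1 for its difference between lines, and the ratios called were 11 (TGF-beta), 3 (rigidity), 19, 23 and 22 (4TO7 and 4T1 against 67NR, 4T1 against 4TO7). With slide as a block, TGF-beta gave 1 in 67NR, 4 in 4TO7 and 3 in 4T1, rigidity 3 over all lines and 1 in each of 67NR, 4TO7 and 4T1, each difference between lines 1, and the rigidity ratios 3. With array weights TGF-beta in 67NR gave 7, and rigidity 1 in 4TO7, 1 in 4T1 and 1 for its difference between lines. The causes were not tested.

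Set differences correlated between groups at -0.33 to 0.49 (median 0.09), and within a line at -0.16 to 0.49 (median 0.25). Since not every pair was over 0.1, the replicate numbers were not taken to pair the arrays. In 4T1 all 6 pairs of groups lay at 0.23 to 0.49. With the set number as a replicate block, 10 passed for TGF-beta in 67NR, 3 for rigidity in 4TO7 and 6 for the TGF-beta difference between lines.

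Leaving out each array in turn gave 16 to 20 stars for TGF-beta over all lines, 0 to 5 in 67NR, 3 to 11 in 4TO7 and 8 to 15 in 4T1. For rigidity the ranges were 6 to 8, 2 to 4 (67NR), 0 to 1 (4TO7) and 1 to 3 (4T1), and for the lines 52 to 55, 56 to 57 and 33 to 42. The differences between lines gave 1 to 4 (TGF-beta) and 0 to 1 (rigidity). Ratios gave 17 to 26, 3 to 16, 35 to 37, 37 to 40 and 34 to 40. For TGF-beta in 4TO7, 3 passed without 4TO7 rigid inhibitor array 1, 4 without compliant inhibitor 1, 5 without compliant inhibitor 2 or compliant TGF-beta 2, and 6 without rigid TGF-beta 1 or 2. In 67NR, 0 passed without 67NR rigid TGF-beta 1, 1 without rigid TGF-beta 2, compliant TGF-beta 1 or rigid inhibitor 1, 5 without compliant inhibitor 2, and 4 without 4T1 compliant inhibitor 1 or 2. The rigidity ratios rose to 16 without 4T1 compliant inhibitor 1 and to 13 without 4TO7 compliant TGF-beta 1, and 11 other arrays left 3. Rigidity in 4T1 gave 1 without 4T1 compliant inhibitor 1 or 2, compliant TGF-beta 1 or 2, rigid inhibitor 1 or 2, rigid TGF-beta 2, 4TO7 compliant inhibitor 1 or 2 or 67NR compliant TGF-beta 2.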
